A study of Homo sapiens with 12 samples.

Results

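The genes described here are the Toll-like receptors TLR1, TLR2, TLR4, TLR5, TLR6, TLR7 and TLR8, the co-receptor CD14, the TLR4 partner LY96 and the adaptor MYD88, 10 genes of the 19775 measured. They were chosen by symbol, from probe sets annotated to that symbol alone. Where several probe sets remained, the highest mean over the 12 arrays decided which stood for the gene. That left 16 probe sets for the 10 genes: 4 for TLR4, 2 each for TLR6, TLR7 and TLR8, and 1 for each of the other 6. The cells were U937, an established human leukemia line with features of immature monocytes, grown in medium with serum. Controls received DMSO vehicle, and the other groups received JS-K, which gives off nitric oxide inside cells, for 90 min, 4 h or 24 h, with 3 biological replicates in each group. The dose of JS-K and the time in vehicle are not given in the labels, and all JS-K times share the same vehicle arrays, so time in culture and JS-K cannot be told apart. U937 is 1 line, without the other cells of blood or tissue, and p-values measure only the spread between these 12 samples.

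Toll-like receptors are membrane proteins that bind molecules typical of microbes and start inflammatory signalling in monocytes and macrophages. TLR4 binds bacterial lipopolysaccharide together with LY96 (MD-2), which holds the lipid, and CD14, which hands it over. TLR2 binds bacterial lipopeptides as a dimer with TLR1 or TLR6, TLR5 binds flagellin, and TLR7 and TLR8 bind RNA in endosomes. MYD88 carries the signal of all of these receptors to IRAK kinases, TRAF6 and NF-kB. TLR1 and TLR6 lie next to each other on chromosome 4, as do TLR7 and TLR8 on chromosome X, in the RefSeq annotation of GRCh38.p14.

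Values are GCRMA levels on the log2 scale, and a level of 4 marks low signal, near the background of the array. The label was checked on myeloid markers. Of 17 measured, 14 reached 4 in at least 1 group, and MPO, CD163 and FCGR1A stayed under it. All 7 T cell markers and all 3 erythroid markers stayed under 4, with summed T cell levels of 15.5 to 16.0 across the groups. Of 5 B cell markers PAX5 alone lay over 4, with a fall of 1.65 at 24 h on the log2 scale, and of 8 epithelial and fibroblast markers COL1A1 alone. At 4 h 3 T cell markers and 4 epithelial or fibroblast markers, all under 4, were called higher, by 0.21 at most. CD14, a defining monocyte marker, was at low signal in every array.

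The array medians lay between 2.84 and 2.99, except that of the 4 h replicate 2, at 3.10. Control RNA spikes with poly-A tails averaged 3.04 ± 0.05 (SD, n = 3) in vehicle, 3.08 ± 0.06 at 90 min, 7.02 ± 0.15 at 4 h and 8.47 ± 0.05 at 24 h. Hybridization spikes averaged 9.96, 10.03, 10.21 and 11.70 in the same order. The 3' less 5' difference of ACTB, a sign of RNA quality, was 0.80, 0.83, 0.96 and 0.96, and 1.15 in the 4 h replicate 2. These values differed between the groups. The poly-A spikes are control RNA, not RNA of the cells. They lay at 2.99 to 3.15 on every vehicle and 90 min array. On every 4 h and 24 h array they lay at 6.85 to 8.52. Sample handling thus changed along with the groups. At 4 h and 24 h this design does not separate handling from JS-K, for LY96, TLR1 and TLR2 too. The part of handling in those differences was not tested. The median of the 9595 genes under 4 on all arrays lay 0.02 over vehicle at 90 min, 0.09 at 4 h and 0.07 at 24 h. In RNA from a whole culture, fewer cells that express a gene and less of its RNA per cell cannot be told apart.

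The 10 genes divided by level. TLR2, TLR4 and MYD88 lay over 4 on all 12 arrays, TLR1 and LY96 crossed that mark, and TLR5, TLR6, TLR7, TLR8 and CD14 lay under it on all 12. After 90 min only TLR4 of the 10 was called higher, against 4.03% of all genes called higher and 9.64% called in either direction (limma, Benjamini-Hochberg adjusted p under 0.05). After 4 h TLR4, LY96, TLR8 and CD14 were called higher, against 23.9% of all genes (40.6% in either direction), and without the 4 h replicate 2 only 2 of the 10 were called, against 12.5% of all genes. After 24 h TLR1, TLR2, TLR4, TLR6, LY96 and MYD88 were called higher, 6 of 10 against 17.8% of all genes (36.7% in either direction), or 9 of 10 without the 4 h replicate 2, when 52.0% of all genes were called higher. No member was called lower than vehicle at any time, where 5.62%, 16.6% and 18.9% of all genes were called lower. In vehicle TLR1, TLR5, TLR6, TLR7, TLR8 and CD14 lay under 4 and LY96 near it, so these members had little room to fall. The median difference of the 10 genes was 0.05 at 90 min, 0.09 at 4 h and 0.32 at 24 h, beside 0.01, 0.06 and 0.06 over all genes. Of the genes called at 4 h, 59.0% were higher, a share of 47.0% after quantile normalization and 29.2% after array medians were subtracted. At 24 h that share was 48.5%, and 38.0% after array medians were subtracted. A moderated F test over the 4 groups called TLR1, TLR2, TLR4, TLR6, LY96 and MYD88, against 38.1% of all genes.

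**Figure D1:**
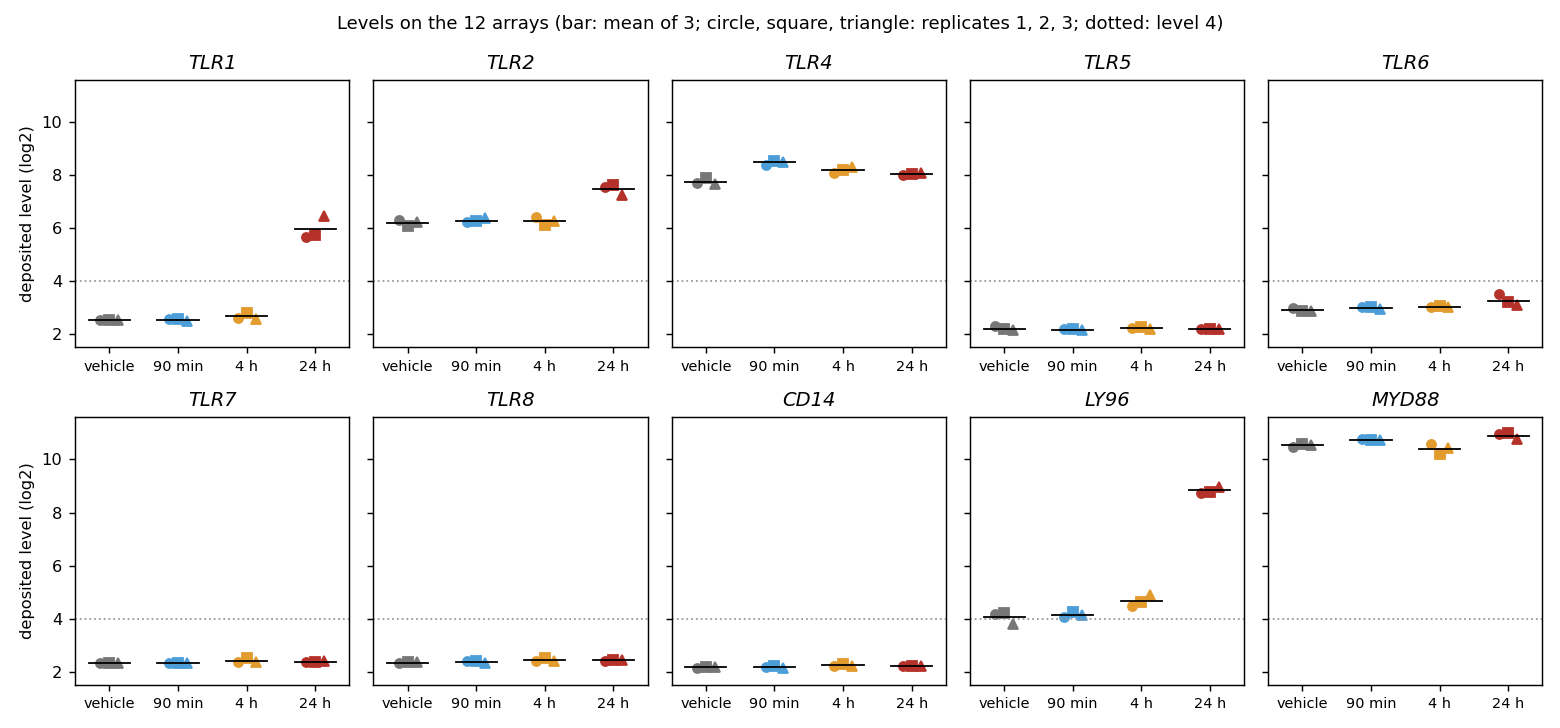
Deposited log2 level of each of the 10 genes on every array, by group, with circles, squares and triangles for replicates 1, 2 and 3 and a bar for the mean of 3. LY96 lies at 8.74 to 8.98 at 24 h and TLR1 at 5.66 to 6.45, apart from all of their other arrays, while 5 genes stay under the mark of 4 throughout.

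TLR4, the receptor for lipopolysaccharide, rose early and then declined. Its representative probe set, 224341_x_at, read 7.69, 7.88 and 7.67 in vehicle and 8.40, 8.52 and 8.51 after 90 min. After 4 h it read 8.09, 8.18 and 8.32, and after 24 h 8.01, 8.06 and 8.08. All 9 JS-K arrays lay over all 3 vehicle arrays, with the 90 min arrays highest. TLR4 was 0.73 ± 0.09 (SE) higher at 90 min, or 1.66-fold, with an adjusted p of 0.000275. At 4 h it was 0.45 ± 0.09 higher, with an adjusted p of 0.00298. The order of the means was vehicle, 24 h, 4 h and 90 min, in which 4 h and 90 min did not differ beyond the test (adjusted p = 0.0738), nor 24 h and 4 h (adjusted p = 0.347). From 90 min to 24 h TLR4 fell by 0.43 on the log2 scale (SE 0.09, adjusted p = 0.00230), 1 of 10 members called lower, against 15.7% of all genes. In that comparison 48.2% of all called genes were higher, and 37.1% after array medians were subtracted.

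The difference from vehicle that remained at 24 h was 0.30 ± 0.09, with an adjusted p of 0.0205. That call was lost without vehicle replicate 1 (adjusted p = 0.0724), vehicle replicate 3 (0.0876), 24 h replicate 2 (0.0551) or 24 h replicate 3 (0.0644), and over all alternatives its adjusted p ran from 0.00195 to 0.871. The other TLR4 probe sets also differed on it. In a fit of every probe set, 232068_s_at was 0.34 higher than vehicle at 24 h, and 221060_s_at and 1552798_a_at were 0.34 and 0.37 lower, all 3 not called (adjusted p = 0.178, 0.140 and 0.149).

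On the early rise the probe sets differed in size. Probe set 232068_s_at read 6.05, 6.38 and 6.31 in vehicle and 7.11, 7.85 and 7.47 at 90 min, a difference of 1.23 ± 0.20 with an adjusted p of 0.00311. Probe set 221060_s_at was 0.53 ± 0.18 higher at 90 min (adjusted p = 0.132), and 1552798_a_at 0.21 ± 0.20 higher (adjusted p = 0.883), neither of them called. At 4 h 232068_s_at was 1.04 ± 0.20 higher (adjusted p = 0.00361), 221060_s_at was 0.27 ± 0.18 higher and not called (adjusted p = 0.231), and 1552798_a_at lay the other way, at -0.13 ± 0.20 (adjusted p = 0.594). The suffix of 224341_x_at marks probes that can also match other transcripts, and which transcripts of TLR4 each probe set reads was not analysed here. From 90 min to 24 h all 4 probe sets were lower, by 0.43 to 0.90 on the log2 scale, and 3 of the 4 were called.

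**Figure D2:**
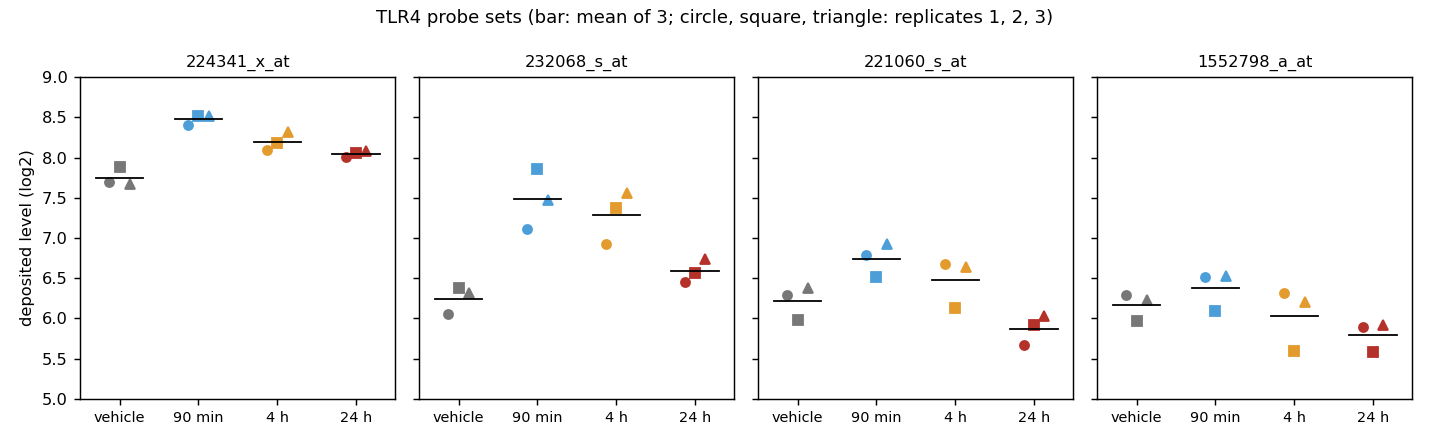
Deposited log2 level of the 4 TLR4 probe sets on every array, by group, with circles, squares and triangles for replicates 1, 2 and 3 and a bar for the mean of 3. In each probe set the 90 min mean is the highest, and the 24 h mean lies over vehicle in 2 probe sets and under it in the others.

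LY96, the lipid-binding partner of TLR4, had the largest rise of the 10 genes. It read 4.17, 4.21 and 3.80 in vehicle and 4.08, 4.24 and 4.13 at 90 min. It then read 4.46, 4.64 and 4.87 at 4 h and 8.74, 8.78 and 8.98 at 24 h. The 90 min arrays overlapped vehicle, the 4 h arrays lay just over it, and the 24 h arrays lay far over all others. At 24 h LY96 was 4.77 ± 0.16 higher than vehicle, or 27.3-fold from a vehicle level at the mark of low signal, with an adjusted p of 6.11e-10. Over all alternatives this difference ran from 4.64 to 4.90, and it was called in each. The step from 4 h to 24 h was 4.18 ± 0.16, with an adjusted p of 6.71e-09. At 4 h the difference from vehicle was 0.60 ± 0.16, with an adjusted p of 0.0183, which was 0.0867 without vehicle replicate 3 and ran from 0.00366 to 0.0867 over all alternatives. At 90 min the difference was 0.09, with a 95% interval from -0.26 to 0.44.

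CD14, the other lipopolysaccharide co-receptor, stayed at low signal. Its only probe set, 201743_at, read 2.14, 2.17 and 2.16 in vehicle, and 2.21, 2.21 and 2.23 at 24 h. The highest of the 12 CD14 values was 2.30, in the 4 h replicate 2. Its call at 4 h rested on a difference of 0.08 ± 0.03 (adjusted p = 0.0433), beside a median shift of 0.09 over the genes of low signal. It was lost without that array (adjusted p = 0.0696) or without any 1 of the vehicle arrays (0.0674 to 0.127), and over all alternatives its adjusted p ran from 0.00365 to 0.908. After array medians were subtracted its direction turned. At 24 h the difference was 0.06 (adjusted p = 0.0989).

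TLR2 and TLR1, which form a lipopeptide receptor together, were near their vehicle levels until 4 h and rose by 24 h. TLR2 read 6.31, 6.09 and 6.23 in vehicle, 6.21, 6.26 and 6.37 at 90 min, and 6.42, 6.13 and 6.26 at 4 h. At 24 h it read 7.54, 7.62 and 7.25. The first 3 groups overlapped, and the 24 h arrays lay over all of them, with replicate 3 lowest. The rise over vehicle was 1.26 ± 0.13, or 2.40-fold, with an adjusted p of 6.99e-06, and ran from 1.18 to 1.41 over the alternatives. TLR2 differed from vehicle by 0.08 at 90 min (95% interval -0.21 to 0.36) and by 0.06 at 4 h (-0.22 to 0.35), neither called.

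TLR1 lay at low signal until 4 h. It read 2.54 on all 3 vehicle arrays, 2.57, 2.58 and 2.49 at 90 min, and 2.62, 2.80 and 2.58 at 4 h. At 24 h it read 5.66, 5.74 and 6.45. The 24 h arrays stood apart from the other 9, with replicate 3 highest, the replicate in which TLR2 was lowest. TLR1 was 3.42 ± 0.16 higher at 24 h than in vehicle, with an adjusted p of 8.27e-09, and 3.28 ± 0.16 higher than at 4 h (adjusted p = 4.05e-08). Because the vehicle level was under 4, this difference has no firm starting level and is given on the log2 scale only. Over all alternatives it ran from 3.17 to 3.56, and it was called in each.

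TLR6, the other partner of TLR2 and the neighbour of TLR1, stayed at low signal. Its representative probe set, 239021_at, read 2.99, 2.89 and 2.88 in vehicle and 3.52, 3.21 and 3.08 at 24 h. The 24 h arrays lay over vehicle, most of all replicate 1, yet the highest was still under 4. The difference was 0.35 ± 0.09, with an adjusted p of 0.00847, which became 0.115 after quantile normalization and ran from 0.000828 to 0.115 over all alternatives. The second TLR6 probe set, 207446_at, lay between 2.30 and 2.48 on all arrays. TLR10, next to TLR1 on the other side and outside the 10 genes, was called higher at 24 h, from 2.58 ± 0.02 to 2.80 ± 0.12 (SD, n = 3), also at low signal. In the fit of every probe set, its other probe set, 223751_x_at, differed by 0.04 at 24 h and was not called (adjusted p = 0.0745).

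TLR5, TLR7 and TLR8 stayed at low signal in all groups. TLR5, the flagellin receptor, lay between 2.15 and 2.29 on the 12 arrays and was called at no time (F test, adjusted p = 0.347). TLR7 lay between 2.31 and 2.51 and was called at no time either (F test, adjusted p = 0.145). The second probe sets of TLR7 and TLR8 also lay under 4 on all arrays. For TLR8, the 4 h arrays read 2.40, 2.53 and 2.39 against 2.31, 2.37 and 2.34 in vehicle, a difference of 0.10 ± 0.03 with an adjusted p of 0.0440. The median shift of genes of low signal was 0.09 in the same comparison, and TLR5, also of low signal, differed by 0.02. The TLR8 call was lost without the 4 h replicate 2 (adjusted p = 0.0634) and without any 1 of the vehicle arrays (0.0644 to 0.129), and its adjusted p ran from 0.00554 to 0.503 over all alternatives. In TLR7, TLR8 and CD14 the highest value of all 12 arrays fell in the 4 h replicate 2, the array whose median was highest.

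**Figure D3:**
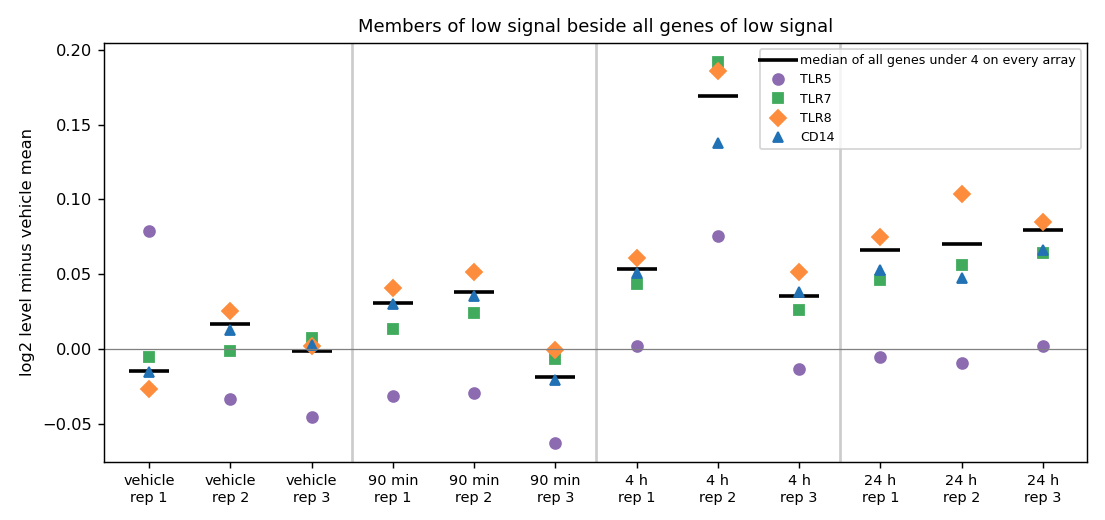
Log2 level minus the gene's vehicle mean for TLR5, TLR7, TLR8 and CD14 on each array, with a black line for the median of the 9595 genes under 4 on all arrays. TLR7, TLR8 and CD14 lie close to the line on every array and are highest with it in the 4 h replicate 2.

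MYD88, the shared adaptor, was well over the mark of low signal on all arrays and differed little between groups. It read 10.46, 10.58 and 10.55 in vehicle and 10.77, 10.74 and 10.72 at 90 min. It read 10.57, 10.20 and 10.42 at 4 h and 10.95, 10.99 and 10.76 at 24 h. The 4 h arrays overlapped vehicle, and the 90 min and 24 h arrays lay over it. At 24 h MYD88 was 0.37 ± 0.09 higher than vehicle, or 1.29-fold, with an adjusted p of 0.00572. After array medians were subtracted that adjusted p was 0.0976, and it ran from 0.000229 to 0.0976 over all alternatives. At 90 min the difference was 0.21 ± 0.09 and was not called (adjusted p = 0.209). From 4 h to 24 h MYD88 rose by 0.50 ± 0.09, with an adjusted p of 0.000997. In that comparison 4 of the 10 genes were called higher (TLR1, TLR2, LY96 and MYD88), against 12.8% of all genes.

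Between 90 min and 4 h MYD88 fell by 0.35 on the log2 scale (SE 0.09, adjusted p = 0.0260), the only member called lower, against 7.25% of all genes. None of the 10 was called higher, against 3.33%. The call was lost without any 1 of the 90 min arrays (adjusted p 0.0710 to 0.0885) and without 4 h replicate 2 (0.0709) or replicate 3 (0.0537), and its adjusted p ran from 0.00623 to 0.0885 over all alternatives. Of all genes called between these times, 31.5% were higher, and 46.4% after quantile normalization or 21.0% after array medians were subtracted. Between 90 min and 24 h TLR1, TLR2, TLR6 and LY96 were called higher, 4 of 10 against 14.6% of all genes (30.3% in either direction), or 7 of 10 without the 4 h replicate 2, when 40.8% of all genes were called higher. TLR6 was 0.28 ± 0.09 higher there (adjusted p = 0.0342), a call lost without any 1 of the 90 min arrays (0.0664 to 0.112) or 24 h replicate 1 (0.108), with a range of 0.00586 to 0.259 over all alternatives.

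**Figure D4:**
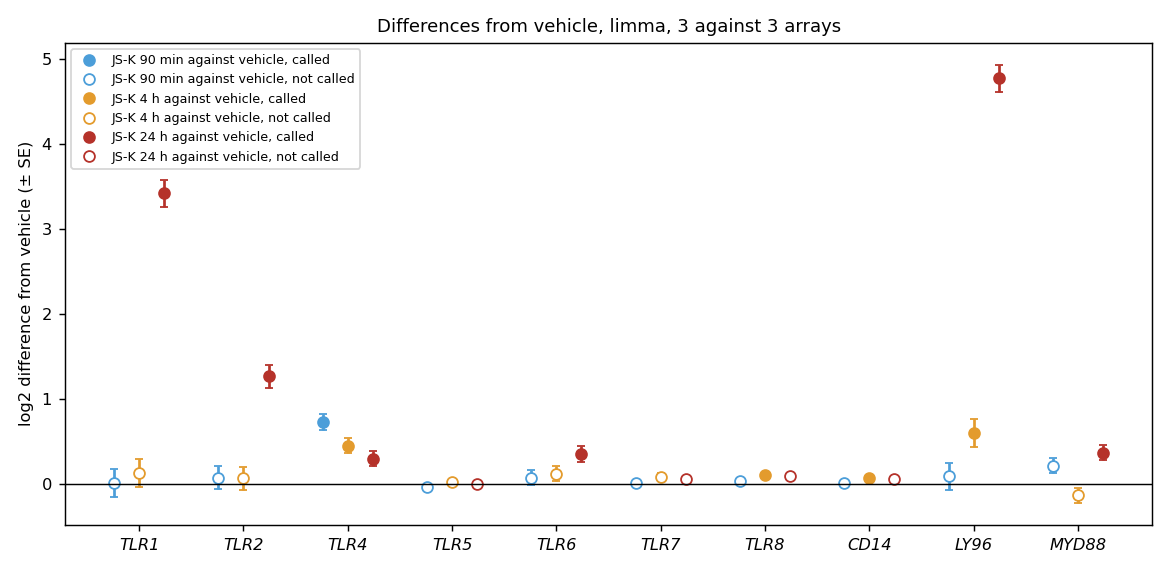
Log2 difference from vehicle of each of the 10 genes at 90 min, 4 h and 24 h, with the limma standard error, filled where the adjusted p is under 0.05. TLR4 leads at 90 min with 0.73, and LY96 and TLR1 lead at 24 h with 4.77 and 3.42.

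The promoters of the expressed members were read to show how they differ in sequence. RefSeq start sites of GRCh38.p14 gave 7 of the 10 genes a promoter entry, and TLR1, TLR7 and LY96 had none. The 250 bases upstream of the start are shown for TLR4, called at every time, and for TLR2 and MYD88, called at 24 h. All 3 lie on the plus strand, TLR4 at chr9:117704153-117704402, TLR2 at chr4:153684030-153684279 and MYD88 at chr3:38138411-38138660. Capitals mark matches, on either strand, to GAGGAAG, a core bound by PU.1 and related ETS factors of myeloid cells, and to the interferon response element core, GAAA repeated after any 2 bases.
TLR4: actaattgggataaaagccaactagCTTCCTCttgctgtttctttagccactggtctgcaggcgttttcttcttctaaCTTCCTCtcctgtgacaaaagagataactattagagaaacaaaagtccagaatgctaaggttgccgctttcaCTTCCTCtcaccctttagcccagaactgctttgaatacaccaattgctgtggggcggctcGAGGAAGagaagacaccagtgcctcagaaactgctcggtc
TLR2: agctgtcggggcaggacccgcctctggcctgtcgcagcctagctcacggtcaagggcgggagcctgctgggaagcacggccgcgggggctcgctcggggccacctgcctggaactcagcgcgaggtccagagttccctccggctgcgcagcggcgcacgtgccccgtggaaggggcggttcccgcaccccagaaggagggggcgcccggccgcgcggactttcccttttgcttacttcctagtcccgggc
MYD88: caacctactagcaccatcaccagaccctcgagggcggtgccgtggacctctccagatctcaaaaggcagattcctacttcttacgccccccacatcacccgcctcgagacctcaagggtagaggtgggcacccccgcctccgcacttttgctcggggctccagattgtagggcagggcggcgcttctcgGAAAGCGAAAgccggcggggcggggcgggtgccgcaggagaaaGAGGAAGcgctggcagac
TLR4 held 4 matches to GAGGAAG, at positions -225 to -219, -172 to -166 and -100 to -94 on the minus strand (printed as CTTCCTC) and -40 to -34 on the plus strand, counted back from the start. Of the 27305 promoters of the same length, 11% held this motif at least once, and 4 (0.0146%) held it 4 or more times. MYD88 held 1 match to GAGGAAG, at -18 to -12, and 1 to the interferon response element core, at -61 to -52, which 3.07% of promoters held. TLR6 and CD14, both at low signal, held 1 match to GAGGAAG each. TLR2 held none of the motifs searched. CD14 also held TGANTCA (AP-1, in 6.6% of promoters) and TLR8 held TGACNNNGC (core of the antioxidant response element, in 11%). The NF-kB consensus, in 5.05% of promoters, was in none of the 7. The motifs searched do not overlap in the sequences shown, and a match is a match of letters only.

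The other genes of the pathway were taken from lists by role, and called counts are read against the share of all genes. As reported, that share was 17.8% higher and 18.9% lower at 24 h, 23.9% and 16.6% at 4 h, and 4.03% and 5.62% at 90 min. After quantile normalization, 2289 of all 19775 genes were called higher and 2583 lower at 4 h, and 3507 and 3851 at 24 h. With array medians subtracted, 1225 were called higher and 2973 lower at 4 h. Each rise or fall given was called at an adjusted p under 0.05. Of the receptors outside the 10 genes, TLR3 and TLR9 stayed under 4 and were not called at 24 h (adjusted p = 0.0870 and 0.0642). Of 5 genes of ligand capture, 3 were called higher and 0 lower at 24 h, and 1 higher and 1 lower at 90 min and again at 4 h. CD36, a scavenger receptor that works with TLR2, was called at 90 min already, from 8.76 ± 0.08 to 10.64 ± 0.15 (SD, n = 3). LY86, the partner of CD180, fell by 0.85 at 90 min and by 0.71 at 4 h and was 1.09 ± 0.14 (SE) higher than vehicle at 24 h. CLEC7A, a receptor for fungal glucans, rose by 1.86 ± 0.40 at 24 h from under 4, with a wide spread (4.64 ± 1.19, SD, n = 3).

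Of 13 genes of receptor folding, transport and endosomal processing, 3 were called higher and 5 lower at 24 h, and 3 higher and 3 lower at 4 h. RAB7B, a GTPase of late endosomes, rose by 2.90 ± 0.14, and the lysosomal protease CTSB rose by 1.73 ± 0.07. UNC93B1, which escorts TLR7 and TLR8 to endosomes, fell by 1.17 on the log2 scale, from 8.47 ± 0.23 to 7.31 ± 0.06 (SD, n = 3). TASL, the adaptor that links these receptors to IRF5, fell by 0.87 at 4 h.

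Of 11 adaptors and proximal kinases, 4 were called higher and 1 lower at 24 h, none at 90 min, and 3 higher and 1 lower at 4 h, or 5 and 1 after quantile normalization. IRAK2 and TRAF6, which act after MYD88, rose by 1.43 ± 0.10 and 1.42 ± 0.21. TICAM1, the adaptor of the branch independent of MYD88, rose by 0.81 ± 0.16. PELI2, a ubiquitin ligase for IRAK proteins, rose by 0.89 ± 0.20 at 4 h.

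Of 18 downstream kinases and factors, 7 were called higher and 2 lower at 24 h, or 11 and 2 after quantile normalization. At 4 h 4 were called higher and 4 lower, or 7 and 2 after quantile normalization and 1 and 2 after array medians were subtracted. The interferon regulatory factors IRF7 and IRF1, and CHUK, a kinase of the complex that releases NF-kB, rose by 1.54 ± 0.13, 1.38 ± 0.18 and 1.12 ± 0.11. IRF8, a factor of monocyte development, fell by 1.91, from 11.23 ± 0.08 to 9.32 ± 0.16 (SD, n = 3).

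Of 16 brakes on receptor signalling, 8 were called higher and 2 lower at 24 h, and 6 higher and 1 lower at 4 h. DUSP1, a phosphatase of MAP kinases, was 2.64 ± 0.17 higher at 90 min, from under 4. ZFP36, which destabilises cytokine mRNA, and CYLD, a deubiquitinase, rose by 2.56 ± 0.14 and 2.18 ± 0.22 at 24 h. NFKBIA, the inhibitor of NF-kB, rose by 1.39 ± 0.16 at 4 h.

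Of 22 genes that receptor signalling is known to induce, 5 were called higher and 0 lower at 90 min. At 4 h 12 were called higher and 1 lower, or 7 and 1 after quantile normalization and 7 and 1 after array medians were subtracted. The gene called lower was the adhesion molecule ICAM1, which fell by 0.51 and was chosen after its value was seen. At 24 h 9 were called higher and 0 lower, and 12 of the 22 stayed under 4 in all groups. Without the 4 h replicate 2 the count at 24 h was 18 of 22, beside 52.0% of all genes, 6 of 7 T cell markers and 3 of 3 erythroid markers. The chemokine CXCL8 rose by 5.47 ± 0.06 at 4 h, from 6.39 ± 0.07 to 11.86 ± 0.06 (SD, n = 3). The chemokine CCL2 rose by 4.26 ± 0.07 at 24 h, and IL1B by 2.83 ± 0.16 from under 4. CXCL2 was 2.64 ± 0.19 higher at 90 min.

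**Figure D5:**
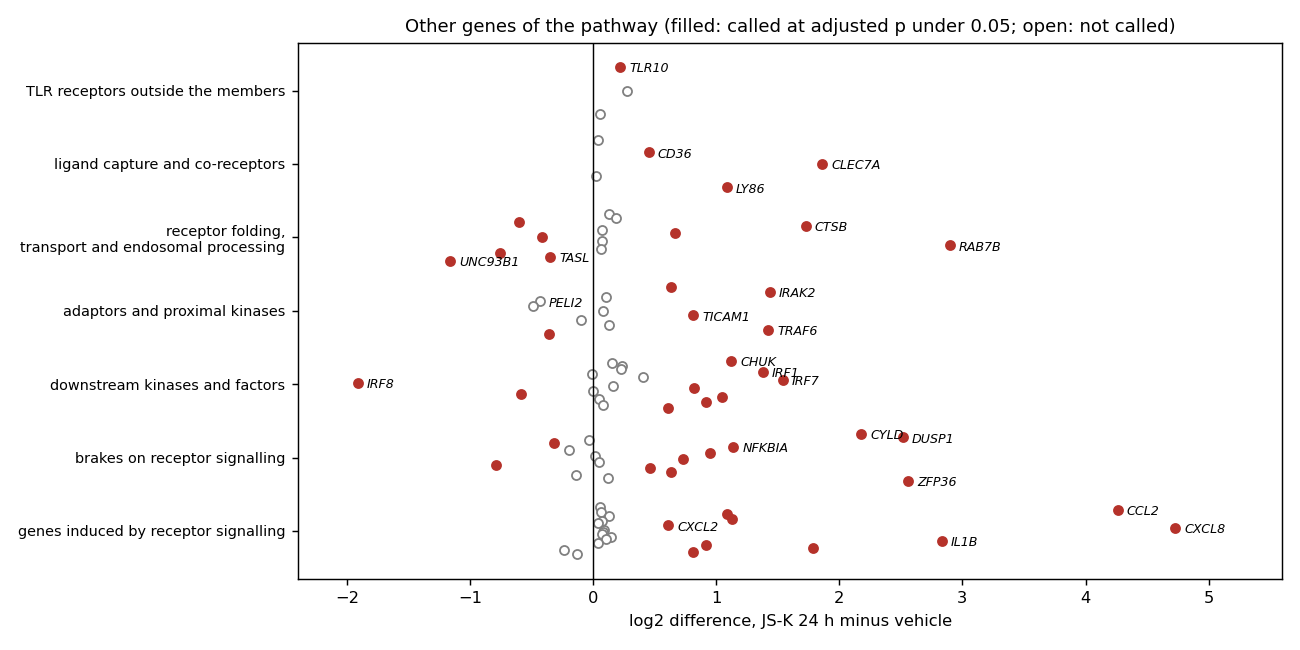
Log2 difference from vehicle at 24 h of the other pathway genes, 1 point a gene, in rows by list, filled where the adjusted p is under 0.05. The row of induced genes reaches furthest to the right, with CXCL8 and CCL2, and IRF8 lies furthest to the left.

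Myeloid markers moved from 90 min on. Of 17, 3 were called higher and 1 lower at 90 min, beside 4.03% and 5.62% of all genes. At 4 h 8 were called higher and 3 lower, beside 23.9% and 16.6%, when TLR1 and TLR2 were not called. At 24 h 9 were called higher and 4 lower, beside 17.8% and 18.9% of all genes. The median difference of the markers was 0.53 beside 0.06 over all genes, and their part in the rise of the receptors was not tested. The 4 of largest difference are named, and all of them were rises at 24 h. The growth factor receptor CSF1R rose by 2.80 ± 0.23, and the Fc receptor genes FCER1G and FCGR2A by 2.77 ± 0.07 and 2.54 ± 0.09. The integrin ITGAX rose by 2.42 ± 0.15 from under 4. The 4 markers called lower at 24 h had smaller differences and are not named. FCER1G read 10.16 in vehicle, 10.97 at 90 min, 11.54 at 4 h and 12.93 at 24 h (means of 3). The summed level of the 17 markers was 133 in vehicle, 136 at 90 min, 138 at 4 h and 148 at 24 h.

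The genes whose pattern lay closest to that of LY96 were found by root mean square distance over the 12 arrays, each gene centred on its vehicle mean, among 9550 genes with a mean of at least 4. They were LOC100507403 (distance 0.29), HAVCR2 (0.41), PSD3 (0.43), DCSTAMP (0.51) and PILRA (0.60). HAVCR2 encodes the surface receptor TIM-3, DCSTAMP a membrane protein of cell fusion, and PILRA an inhibitory receptor of myeloid cells. Their differences from vehicle at 24 h were 4.98, 4.61, 4.99, 4.43 and 3.75 in that order, beside 4.77 for LY96. The first 4 had vehicle means under 4. The filter used the mean over all 12 arrays, so a large 24 h rise helped a gene pass it. LOC100507403 (2.69 in vehicle, higher by 0.09 at 90 min and 0.27 at 4 h) passed only through the 24 h arrays. So did HAVCR2 (2.53 in vehicle, higher by 0.17 and 1.18) and DCSTAMP (3.28 in vehicle, higher by 0.14 and 1.28).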

How the data were processed

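U937 RNA was measured on 12 arrays in 4 groups of 3 biological replicates. Per the labels' protocols, Trizol RNA (200 ng) was labelled with a whole-transcript kit. Per the submitters' processing notes, GCRMA in Affymetrix Expression Console made the values, and the authors deposited them on the log2 scale, 1 per probe set and array; versions are not given in the sources used here. They were used without further normalization. Of 54675 probe sets, 41097 had 1 gene symbol, 1801 several and 11777 none, and those with 1 symbol gave 19775 genes, each by its brightest probe set. Of these genes 51.7% had a mean under 4, the mark of low signal, and none was filtered out.

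A linear model of limma 3.58.1 (R 4.3.3), with eBayes and a trend of spread on level, compared the groups over all 12 arrays and genes, with Benjamini-Hochberg adjustment per comparison and calls at an adjusted p under 0.05. The fit was tested on simulated data. The deviations of vehicle and 90 min arrays of the same number correlated in all 3 pairs (0.12 to 0.26), so these groups may be paired, which the labels do not say. Arrays of different numbers were not compared, so a pairing is not established. The reported fit had no replicate block, and with the block no member call at 90 min changed. The number of arrays limits the precision. The 10 genes and the lists were chosen with earlier results of these data known. Named genes were all members, up to 4 called genes of largest difference per list, the receptors outside the 10 genes and the 5 genes closest to the member with the largest rise. Alternatives were a constant spread, filters on dim genes, the mean of probe sets, every probe set, quantile normalization, subtracted medians, array weights, a fit of just the 6 arrays compared, the replicate block and leaving out each array. The fits without the 4 h replicate 2 in comparisons that do not use it, TLR4 by its next brightest probe set and the list counts under other settings were added after seeing the data. Figures were drawn with matplotlib 3.10.9.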

Additional observations from a re-analysis of the deposited data

Results flagged for a closer look

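Effects against vehicle differed between times by the limma test of the difference itself (adjusted p under 0.05), and these comparisons share their JS-K and vehicle arrays. From 4 h to 24 h the effect grew by 3.28 for TLR1, 1.20 for TLR2, 4.18 for LY96 and 0.50 for MYD88 on the log2 scale. From 90 min to 24 h it grew by 3.41 for TLR1, 1.19 for TLR2, 4.68 for LY96 and 0.28 for TLR6, and the TLR4 effect differed by -0.43. From 90 min to 4 h the MYD88 effect differed by -0.35.

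The poly-A spike probe sets, which no comparison uses, averaged 7.02 at 4 h and 8.47 at 24 h, over the 3.04 of vehicle. Sample handling thus changed along with the groups, and its part in the differences at 4 h and 24 h was not tested.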

How the results depend on the processing

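The rises of TLR1, TLR2 and LY96 at 24 h, those of TLR4 at 90 min and 4 h and the TLR4 fall from 90 min to 24 h were called in every alternative that tested them (TLR1 is not among genes with a mean of at least 4), where TLR4 was read by its brightest or next brightest probe set or the mean of all 4. Of its other probe sets on their own, 221060_s_at and 1552798_a_at were not called at 90 min or 4 h, nor 1552798_a_at from 90 min to 24 h. Of 583 refitted member differences, 518 kept their direction and call, 39 lost the call, 14 gained it and 12 turned direction. These leave out the differences of TLR5, TLR6, TLR7, TLR8 and CD14 that were not called as reported. Calls gained or directions turned among those are therefore not counted here or below. Several refits keep a difference by design and can change only its call. Examples are a constant spread, the filters on dim genes, and the mean of probe sets for a gene with 1 probe set. Of 210 counts of called members 30 moved. Members called higher at 4 h, 4 as reported, were 2 with a constant spread, without the dimmest genes, among genes with a mean of at least 4, after quantile normalization or with medians subtracted, 1 with the 6 arrays compared, and 1 to 5 without 1 array (called lower, 0 to 1). At 90 min 2 were called higher with array weights and 2 with the 6 arrays compared. From 90 min to 4 h 1 was called higher with a constant spread, without the dimmest genes, among genes with a mean of at least 4 or by the mean of probe sets, and 0 to 1 without 1 array. Called lower there were 2 with a constant spread or array weights, 0 with medians subtracted or the 6 arrays compared, and 0 to 1 without 1 array. From 90 min to 24 h 2 were called higher among genes with a mean of at least 4, and 3 to 7 without 1 array. From 4 h to 24 h 1 was called lower by the mean of probe sets or with TLR4 by its next brightest probe set.

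Turned differences were TLR1 at 90 min (-0.011 after quantile normalization, -0.0073 to 0.035 without 1 array), LY96 at 90 min (-0.044 to 0.17 without 1 array), TLR2 at 4 h (-0.015 with medians subtracted, -0.012 to 0.14 without 1 array), CD14 at 4 h (-0.0039 with medians subtracted) and TLR4 at 24 h (-0.018 by the mean of probe sets). TLR2 from 90 min to 4 h read 0.082 after quantile normalization, 0.13 with array weights and -0.087 to 0.061 without 1 array. The cause was not tested. Outside the comparison of 90 min with vehicle, no comparison had every same-number pair correlated over 0.1. The pairs of 90 min with 4 h came closest, at 0.09, 0.30 and 0.19. Of all 18 same-number pairs, 6 correlated over 0.1 (range -0.15 to 0.30). With the replicate number as a block, the members called higher were 1, 4 and 7 at 90 min, 4 h and 24 h, and the block moved no member count by over 1.5 times. Counts over all genes moved in 40 of 210 refits: genes called higher at 4 h, 4735 as reported, ran from 1018 with the 6 arrays compared to 8612 with array weights, and at 24 h, 3518 as reported, from 2399 with medians subtracted to 11039 with array weights. Signal limits TLR5, TLR6, TLR7, TLR8 and CD14, all under 4.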
